A study of Mus musculus with 16 samples.

Results

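The proliferation and mitosis genes described here are 40 genes that mark or drive the cell cycle, chosen by name: 2 proliferation markers, 7 genes of DNA replication, 9 of mitotic entry, 8 of the spindle and kinetochore, 8 G1 cyclins and kinases, and 6 E2F, pocket protein and p27 genes. All 40 were on the array, with 63 of its 56605 probes, and all 40 were among the 15646 genes tested of 22911 named genes. RNA came from whole kidneys of C57BL/6 mouse embryos at embryonic day 17.5, in 4 genotypes with 4 arrays each. In the Ezh2-KO group Ezh2 was deleted on both alleles in Six2-positive nephron progenitors, and Ezh1 was wild type. The Ezh1-het group had the same Ezh2 deletion and had lost 1 germline Ezh1 allele, and the double knockout had the same Ezh2 deletion and had lost both. Control kidneys were wild type. Ezh2 and Ezh1 are the alternative catalytic subunits of Polycomb repressive complex 2, which methylates histone H3 at lysine 27. Each array carried its sample in Cy5 and the RNA of control 1 in Cy3, with no dye swap, so that control 1 was hybridised against itself. All values below are log2(Cy5/Cy3), in which 0 is equal signal in both dyes. On the array of control 1 the 40 genes ran from -0.29 (Cdk2) to 0.28 (Cdkn1b), so that single values can lie that far from 0 with the same RNA in both dyes. The Ezh2 deletion affects only cells that have expressed Six2 and their descendants, so a whole kidney holds deleted and undeleted cells, and in bulk tissue fewer cells of a type and less RNA per cell cannot be told apart. The design text names biological replicates without saying whether a sample is 1 embryo. The titles call each control a kidney pair and each knockout only a sample. Each p-value reflects how far these 16 samples scatter.

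Cells enter the cycle when D-type cyclins, with Cdk4 or Cdk6, phosphorylate the retinoblastoma family and release E2F factors, which switch on the replication genes. CDK inhibitors such as p16 and p27 oppose this step. Later, Foxm1 and the MuvB complexes switch on the genes of mitosis, and in resting cells the DREAM complex keeps both sets low through E2F-type and cell cycle homology elements beside CCAAT boxes. Nephron progenitors of the embryonic kidney divide while they both renew themselves and form nephrons, until they are used up around birth.

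The promoter letters of the members carried these elements more often than promoters at large. RefSeq windows on GRCm38.p6, from 250 bases before to 50 bases after a start, were matched for 32 of the 40 members (35 windows). The search covered both strands for the CCAAT box, the cell cycle homology region (read as TTTGAA or as TTCGAA) and an E2F-type core (read as TTCCCGC, also as TTCGCGC, also as TTGGCGC), and matches of different motifs were allowed to overlap. A CCAAT box was found in 71.4% of the member windows, against 37.4% of all 32851 windows. The cell cycle homology region was found in 14 of the 35, against 19.2% of all, and the E2F-type core in 28.6%, against 8.07% of all. A match describes letters and is not a shown binding site. The next 3 windows are shown because Pttg1 and Cenpa changed in at least 1 genotype and Top2a is a proliferation marker, with matched letters in capitals. The first is on the minus strand at chr11:43425932-43426231, the second on the plus strand at chr5:30666636-30666935, and the third on the minus strand at chr11:99024140-99024439.
Pttg1: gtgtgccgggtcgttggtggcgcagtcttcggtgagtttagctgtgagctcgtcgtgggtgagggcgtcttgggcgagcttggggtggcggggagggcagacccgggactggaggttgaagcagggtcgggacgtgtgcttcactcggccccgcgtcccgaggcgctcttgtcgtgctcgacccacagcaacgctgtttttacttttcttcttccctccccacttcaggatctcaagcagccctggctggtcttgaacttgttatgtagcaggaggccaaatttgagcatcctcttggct
Cenpa: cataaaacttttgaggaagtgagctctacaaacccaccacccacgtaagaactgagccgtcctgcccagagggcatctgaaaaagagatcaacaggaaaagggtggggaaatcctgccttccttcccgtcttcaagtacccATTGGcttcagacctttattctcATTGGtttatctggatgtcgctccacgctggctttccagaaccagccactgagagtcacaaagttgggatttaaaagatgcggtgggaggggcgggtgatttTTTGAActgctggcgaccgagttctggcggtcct
Top2a: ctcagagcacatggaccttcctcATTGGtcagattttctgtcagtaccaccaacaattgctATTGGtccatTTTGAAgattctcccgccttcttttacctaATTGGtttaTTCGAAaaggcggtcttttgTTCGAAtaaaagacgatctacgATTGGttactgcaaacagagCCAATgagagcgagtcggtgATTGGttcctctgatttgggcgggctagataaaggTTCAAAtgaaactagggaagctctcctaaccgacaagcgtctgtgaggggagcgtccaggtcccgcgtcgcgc
The Cenpa window held 2 CCAAT boxes and 1 cell cycle homology region, and the Top2a window held 6 and 4. None of the searched motifs was in the Pttg1 window. Promoter windows of Ccnd2 and Foxm1 were not used here.

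Replicates 1 and 2 of each genotype were on slide 1, and replicates 3 and 4 on slide 2. Control 2 had the weakest Cy5 signal (75th percentile 4.85 times background) and Ezh2-KO 4 the strongest (14.6 times), and 0 spots were saturated. Ezh1 averaged 0.05 ± 0.33 for Ezh2-KO, -1.13 ± 0.20 for Ezh1-het and -4.55 ± 0.08 for double knockout kidneys, against -0.08 ± 0.26 in control kidneys (SD, n = 4 each), which follows the labelled Ezh1 alleles. Of 5 Ezh2 probes, 1 averaged -3.32 for Ezh2-KO, -3.43 for Ezh1-het and -3.09 for double knockout kidneys, against 0.09 in control kidneys. The group means of the other Ezh2 probes lay between -0.45 and -0.11 in the 3 knockout genotypes. The kidney identity markers Pax2, Pax8, Emx2, Lhx1 and Wt1 were above background on all 16 arrays.

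With loess normalisation few of the 40 genes changed, and each change that passed the threshold was an increase. With median centring in place of loess, 30 members were called in Ezh2-KO, 34 in Ezh1-het (1 of them lower) and 26 in double knockout kidneys, but the median of all genes was then shifted too, by 0.41, 0.44 and 0.38, and array weights gave 8 calls in Ezh1-het and 6 in double knockout kidneys. The share of all genes called in these runs is not given here, so these counts cannot be set against it. At an adjusted p under 0.05 (limma, Benjamini-Hochberg over all genes tested), 2 of 40 members rose in Ezh2-KO kidneys against control (Ccnd2 and Foxm1), where 3.08% of all genes were called (2.4% higher and 0.677% lower). In Ezh1-het kidneys 3 of 40 rose (Ccnd2, Pttg1 and Cenpa), where 7.81% of all genes were called (5.91% higher and 1.9% lower). In double knockout kidneys 2 of 40 rose (Ccnd2 and Pttg1), where 4.62% were called (3.71% higher and 0.914% lower). These shares, 5%, 7.5% and 5% of the members, were not far from those of all genes. Counted by probe, 4, 6 and 5 of the 63 probes were called in the 3 comparisons, where 2.63%, 6.35% and 3.09% of all probes were. The 3 comparisons share the same 4 control arrays. None of the 40 passed the test as lower against control. At an unadjusted p under 0.05, 0 members were lower in each of the 3 comparisons, where 6.93%, 8.48% and 6.64% of all genes were.

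**Figure D1:**
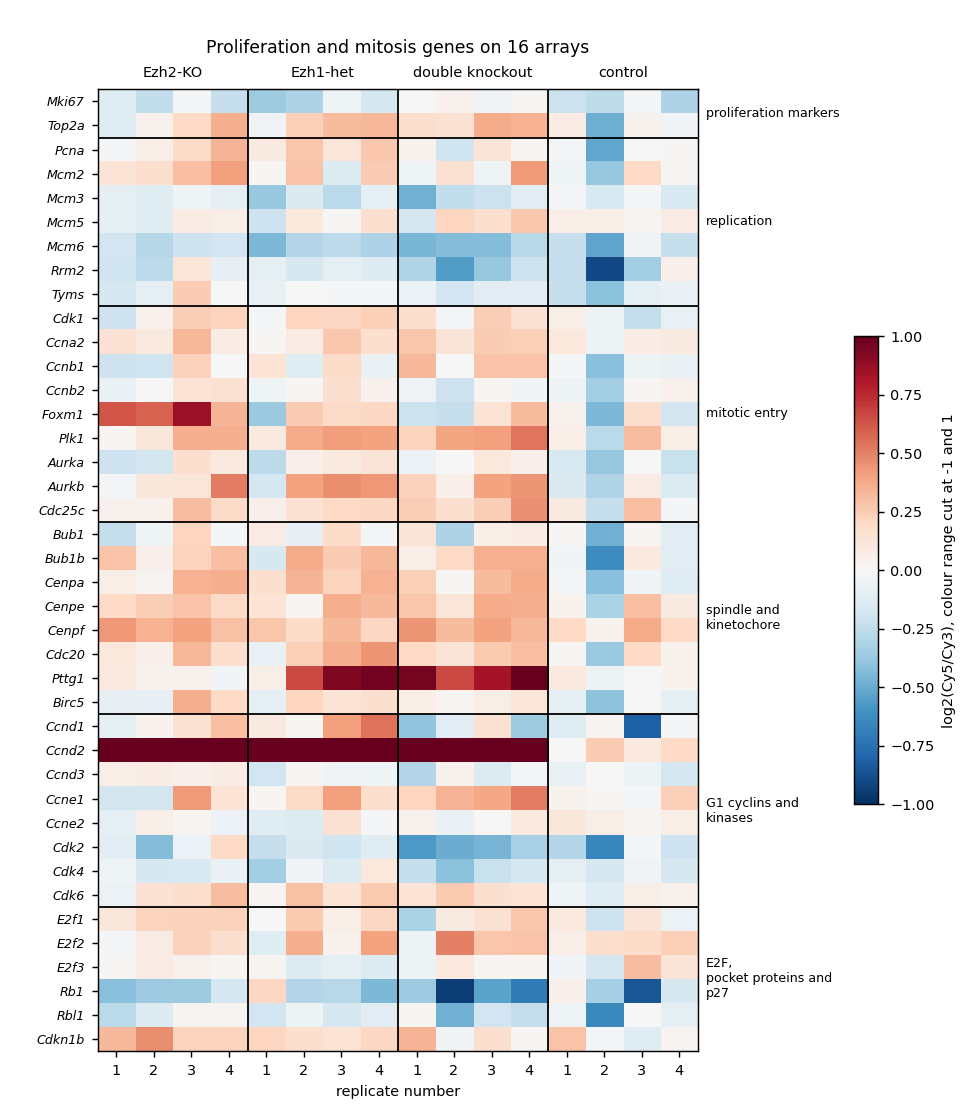
Log2(Cy5/Cy3) of the 40 members (rows, by role) on the 16 arrays (columns, 4 per genotype); red is above and blue below 0, and colours are cut at -1 and 1. Ccnd2 is above 1 on all 12 knockout arrays, Pttg1 is high on 3 Ezh1-het and 4 double knockout arrays, and control 2 is the lowest array for many genes.

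Ccnd2 (cyclin D2, a G1 cyclin that activates Cdk4 and Cdk6) changed most of the 40 genes. It read 1.15, 1.14, 1.29 and 1.13 on the Ezh2-KO arrays, 1.10, 1.28, 1.12 and 1.23 on the Ezh1-het arrays, and 1.43, 1.99, 1.38 and 1.28 on the double knockout arrays, against 0.00, 0.25, 0.09 and 0.20 on the control arrays. Every knockout array lay above every control array, with 1.10 as the lowest knockout value and 0.25 as the highest control value. Against control the difference was 1.04 for Ezh2-KO (2.06-fold, SE 0.12, adjusted p = 0.00055), 1.04 in Ezh1-het (2.06-fold, SE 0.12, adjusted p = 0.000141) and 1.38 in double knockout kidneys (2.60-fold, SE 0.12, adjusted p = 4.14e-06). Its 3 probes read alike, with differences of 1.04 to 1.06, 1.03 to 1.12 and 1.38 to 1.47. The call against control held in every alternative run, including within each slide alone. Ccnd2 and Ezh2 both lie on chromosome 6, as do Foxm1 and the uncalled members Mcm2 and Cdkn1b. Whether this bears on their values was not tested.

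With the additional loss of Ezh1, no further difference passed the threshold at the brightest Ccnd2 probe, which stands for the gene. Ezh1-het differed from Ezh2-KO by 0.0041 (95% interval -0.25 to 0.26, adjusted p = 0.995). Double knockout was 0.34 above Ezh2-KO (95% interval 0.08 to 0.60, adjusted p = 0.235), with the highest value, 1.99, on 1 of its arrays. The arrays of these groups overlapped at 1.28 and 1.29. Of the 2 other Ccnd2 probes, 1 gave 0.43 for double knockout against Ezh2-KO (adjusted p = 0.0253 over all probes).

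The other D-type cyclins did not share this pattern. Ccnd1 (cyclin D1) had differences from control of 0.34 for Ezh2-KO (adjusted p = 0.288), 0.50 for Ezh1-het (adjusted p = 0.0969) and 0.05 for double knockout (adjusted p = 0.917). Control 3 was far below the other control arrays for Ccnd1, at -0.81, while the others lay between -0.12 and 0.03. Ccnd3 (cyclin D3) differed from control by 0.14, 0.02 and -0.03 in the same order of genotypes, none past the threshold. It was below every Ezh2-KO array on all Ezh1-het and all double knockout arrays, with differences of -0.13 (adjusted p = 0.676) and -0.17 (adjusted p = 0.381).

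**Figure D2:**
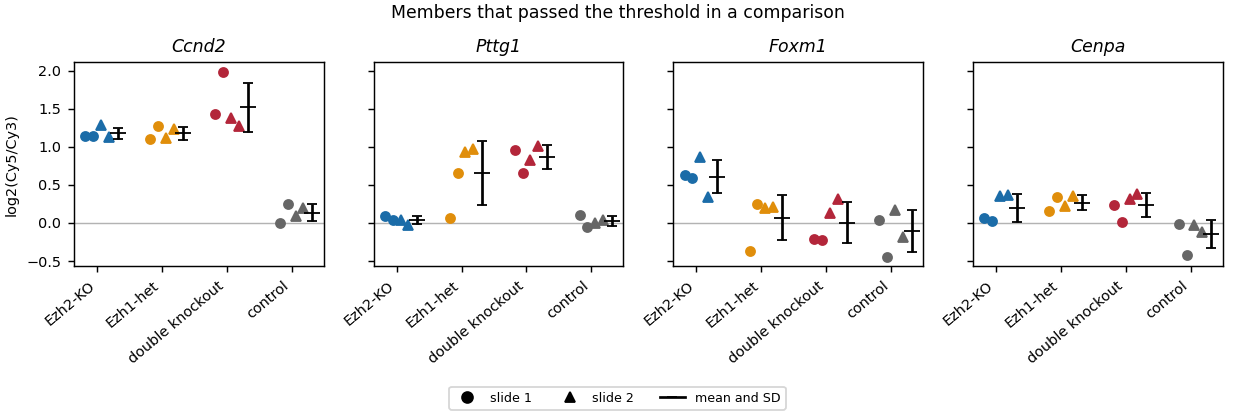
Log2(Cy5/Cy3) of Ccnd2, Pttg1, Foxm1 and Cenpa on each array (circles slide 1, triangles slide 2), with the mean and SD of the 4 arrays of each genotype in black. Ccnd2 stands at 1.10 or above on all knockout arrays and at 0.25 or below on control arrays; Pttg1 is high in double knockout and on 3 of 4 Ezh1-het arrays, with Ezh1-het 1 at the control level.

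Pttg1 (securin, which holds back separase until anaphase) rose in Ezh1-het and double knockout kidneys. Its values were 0.10, 0.04, 0.04 and -0.03 on the Ezh2-KO arrays, 0.06, 0.66, 0.93 and 0.97 on the Ezh1-het arrays, and 0.95, 0.66, 0.83 and 1.01 on the double knockout arrays, against 0.10, -0.05, -0.01 and 0.04 on the control arrays. All double knockout arrays and 3 of 4 Ezh1-het arrays were above every control and Ezh2-KO array, and Ezh1-het 1 lay within the control range. The difference from control was 0.02 in Ezh2-KO (adjusted p = 0.956), 0.63 in Ezh1-het (SE 0.15, adjusted p = 0.0192) and 0.84 in double knockout kidneys (1.79-fold, SE 0.15, adjusted p = 0.00262). Tested directly against Ezh2-KO, it was 0.83 higher in double knockout kidneys (adjusted p = 0.0110), the 1 member called in that comparison, where 0.914% of all genes were called (0.639% higher and 0.275% lower) and 2 of 63 member probes passed, against 0.674% of all probes. Ezh1-het against Ezh2-KO gave 0.62 (adjusted p = 0.342). With 1 array left out at a time, this difference stayed uncalled in 7 of 8 runs. The exception was the run without Ezh1-het 1 (0.81, adjusted p = 0.00359), the array at the control level. Ezh1 itself read -1.38 on Ezh1-het 1 and -1.09, -1.17 and -0.88 on the other Ezh1-het arrays. Why Pttg1 on Ezh1-het 1 stayed at the control level was not tested.

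The Pttg1 calls did not rest equally on all probes and arrays. Its second probe was much dimmer, above background on 10 of 16 arrays, and gave smaller differences of 0.18, 0.38 and 0.46, the last with an adjusted p of 0.0351 over all probes. Leaving out control 2 or any of the Ezh1-het replicates 2, 3 and 4 ended the Ezh1-het call (adjusted p between 0.0511 and 0.0714). Within slide 1 the Ezh1-het difference was 0.34, and within slide 2 it was 0.93 (adjusted p = 0.0284). The double knockout difference was 0.78 within slide 1 (adjusted p = 0.112) and 0.90 within slide 2 (adjusted p = 0.0125). Pttg1 and Ezh1 both lie on chromosome 11, as do the uncalled members Top2a, Aurkb and Birc5. Over the 16 arrays, the genes whose values followed Pttg1 most closely were Olfr224 (Pearson r = 0.87), Rpl27a, Gpr75, Adgrb1 and Cbr2 (0.85), of which 3 (Olfr224, Gpr75 and Cbr2) are on chromosome 11 too, and what this means for Pttg1 was not tested. Sequence carried along with the lost Ezh1 allele on chromosome 11 cannot be told apart from the loss of Ezh1 in these groups. These genes were chosen after their values were seen.

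In the spindle and kinetochore group as a whole, differences from control were above 0 for 8 of 8 genes in each genotype. Their median was 0.20 for Ezh2-KO, 0.26 for Ezh1-het and 0.25 for double knockout kidneys, where the median of all genes was 0.060, 0.052 and 0.0063. Of all genes 62.6%, 60.6% and 51.5% had a difference above 0. Control 2 was the lowest control array for each of these 8 genes, and without it (a setting chosen after seeing the data) 7, 7 and 8 of the 8 genes lay above 0, with medians of 0.10, 0.17 and 0.14, where those of all genes were 0.037, 0.025 and -0.011. Only Pttg1 and Cenpa passed the threshold. Cenpa (the histone H3 variant of centromeres) read 0.06, 0.03, 0.35 and 0.37 on the Ezh2-KO arrays, 0.16, 0.34, 0.23 and 0.35 on the Ezh1-het arrays, and 0.24, 0.02, 0.31 and 0.37 on the double knockout arrays, against -0.02, -0.42, -0.03 and -0.12 on the control arrays. Each knockout array was above each control array, though the gap to the highest control value was small on Ezh2-KO 2 and double knockout 2. The difference was 0.35 (adjusted p = 0.0929) in Ezh2-KO, 0.42 (adjusted p = 0.0339) in Ezh1-het and 0.38 (adjusted p = 0.0638) in double knockout kidneys, and the Ezh1-het call was lost without control 2 (0.32, adjusted p = 0.0974), without control 4, or without Ezh1-het 2, 3 or 4.

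Other checkpoint and kinetochore genes had differences of similar size that did not pass. Bub1b (BubR1, of the spindle checkpoint) differed from control by 0.38 for Ezh2-KO, 0.37 for Ezh1-het and 0.41 for double knockout, with adjusted p of 0.151, 0.130 and 0.142. Cdc20, the activator of the anaphase-promoting complex, gave 0.20, 0.28 and 0.25, and Birc5 (survivin, of the chromosomal passenger complex) gave 0.25, 0.25 and 0.22. Cenpe and Cenpf, 2 large kinetochore proteins, gave 0.20 and 0.17 in Ezh2-KO, 0.18 and 0.05 in Ezh1-het, and 0.25 and 0.17 in double knockout kidneys.

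Foxm1 (a forkhead factor that drives mitotic genes) rose in Ezh2-KO kidneys by 0.71 (1.63-fold, SE 0.17, adjusted p = 0.0343). It read 0.63, 0.59, 0.87 and 0.34 on the Ezh2-KO arrays, -0.37, 0.25, 0.19 and 0.20 on the Ezh1-het arrays, and -0.22, -0.23, 0.13 and 0.32 on the double knockout arrays, against 0.05, -0.45, 0.17 and -0.18 on the control arrays. All Ezh2-KO arrays lay above all arrays of the other genotypes, the smallest gap being that of Ezh2-KO 4 to double knockout 4. Ezh1-het differed from control by 0.17 (adjusted p = 0.553) and double knockout by 0.11 (adjusted p = 0.810). Tested directly, Ezh1-het was at -0.54 relative to Ezh2-KO (adjusted p = 0.655) and double knockout at -0.60 (adjusted p = 0.123). The second, dimmer Foxm1 probe gave 0.12, -0.05 and -0.00076 against control, and the Ezh2-KO call was lost with the mean of both probes (0.41, adjusted p = 0.0615), without control 2 (0.59, adjusted p = 0.114), and without control 4 or Ezh2-KO 1, 2 or 3.

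Among the other mitotic entry genes none passed the threshold, and differences from control were above 0 for 9 of 9 genes of the group in each genotype, with medians of 0.15, 0.17 and 0.21. Of all genes 62.6%, 60.6% and 51.5% were above 0, with medians of 0.060, 0.052 and 0.0063. Without control 2 the counts were 9, 9 and 7 and the medians 0.072, 0.075 and 0.15. In that run 60.2%, 55.8% and 47.1% of all genes were above 0, with medians of 0.037, 0.025 and -0.011. Aurkb (Aurora B, the kinase of the chromosomal passenger complex) gave 0.31, 0.41 and 0.41 (adjusted p = 0.238, 0.0983 and 0.154). Plk1 (Polo-like kinase 1) gave 0.17, 0.28 and 0.35, and Cdk1 (the mitotic cyclin-dependent kinase) gave 0.15, 0.24 and 0.21. Ccnb1 (cyclin B1, the partner of Cdk1) gave 0.09, 0.17 and 0.36 (adjusted p = 0.110 for the last), while its 3 probes spread from -0.25 to 0.32 in Ezh2-KO and from -0.16 to 0.46 in Ezh1-het kidneys. Of those, 1 probe passed in Ezh1-het (0.46, adjusted p = 0.0468 over all probes).

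**Figure D3:**
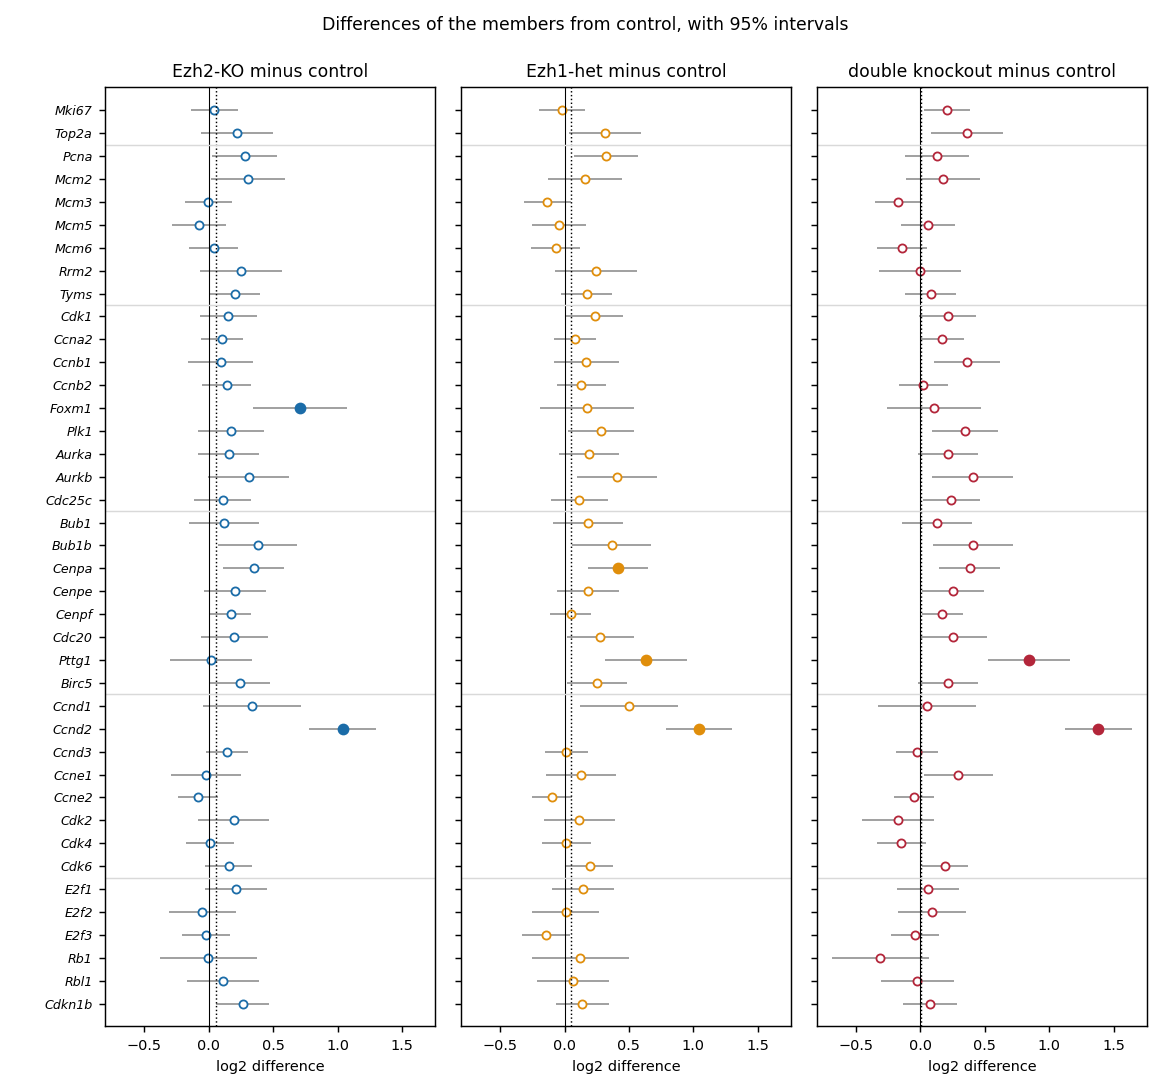
Log2 difference from control of each member, with Ezh2-KO, Ezh1-het and double knockout in a panel each and 95% intervals; filled points passed the threshold, the dotted line is the median of all 15646 genes, and grey lines separate the roles. Ccnd2 stands furthest right in each panel, and the points of mitotic entry and of the spindle and kinetochore lie right of 0 in each.

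The proliferation marker Mki67 (Ki-67, a protein of dividing cells) was close to control in Ezh2-KO and Ezh1-het kidneys. In double knockout kidneys it read higher without passing the threshold. Its values were -0.12, -0.25, -0.02 and -0.23 on the Ezh2-KO arrays, -0.35, -0.31, -0.04 and -0.18 on the Ezh1-het arrays, and 0.01, 0.04, -0.04 and 0.02 on the double knockout arrays, against -0.22, -0.26, -0.02 and -0.31 on the control arrays. Ezh2-KO arrays lay within the control range and Ezh1-het arrays overlapped it, while double knockout arrays lay close together at or above the highest control array, except for 1 just below it. The difference from control was 0.05 in Ezh2-KO (95% interval -0.13 to 0.22), -0.02 in Ezh1-het (95% interval -0.20 to 0.16) and 0.21 in double knockout kidneys (95% interval 0.03 to 0.39, adjusted p = 0.212). The genes that followed Mki67 most closely over the 16 arrays were Sf3a2 (Pearson r = 0.80), Slfn10-ps, Tnpo2, Isyna1 and Sac3d1 (0.75), none of them a member.

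Top2a (topoisomerase II alpha, which untangles DNA before division) had differences from control of 0.22 for Ezh2-KO, 0.31 for Ezh1-het and 0.36 for double knockout (adjusted p = 0.336, 0.151 and 0.155). On the double knockout arrays it read 0.17, 0.15, 0.37 and 0.35, against 0.08, -0.49, 0.04 and -0.03 on the control arrays, with no overlap. All 4 double knockout arrays were above all control arrays for 8 of 40 members (Birc5, Ccna2, Ccnb1, Ccnd2, Cdk6, Cenpa, Pttg1 and Top2a), where 6.35% of all genes had that pattern. Of these, Cdk6 passed the filter on dim probes only through knockout arrays, which leaves 7. The same held for 4 members in Ezh2-KO kidneys (Ccnd2, Ccnd3, Cenpa and Foxm1), where 7.9% of all genes had it, and for 3 in Ezh1-het kidneys (Ccnd2, Cenpa and Pcna), where 12.6% had it. Below all control arrays lay 0 members for Ezh2-KO, 0 for Ezh1-het and 1 for double knockout (Cdk4), where 3.31%, 5.22% and 2.99% of all genes did.

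Replication genes showed no called difference in any genotype. Pcna (the sliding clamp) gave 0.28 for Ezh2-KO, 0.32 for Ezh1-het and 0.13 for double knockout against control, and Mcm2, a subunit of the replicative helicase, gave 0.31, 0.16 and 0.18. Mcm3 and Mcm6, of the same helicase, gave -0.17 and -0.14 in double knockout kidneys. Rrm2 (a subunit of ribonucleotide reductase) ran from -0.90 on control 2 to 0.05 on control 4, a wider spread than the 0.25 by which Ezh2-KO kidneys differed from control. The median of the 7 genes was 0.20 above control for Ezh2-KO, 0.16 for Ezh1-het and 0.057 for double knockout kidneys. Without control 2 these medians were 0.073, 0.050 and 0.0023, against 0.037, 0.025 and -0.011 for all genes.

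Of the remaining G1 genes, Cdk4 differed from control by 0.01, 0.01 and -0.15 and Cdk2 by 0.19, 0.12 and -0.17. Ccne1 (cyclin E1) gave -0.02, 0.13 and 0.29, the last with an adjusted p of 0.242. Cdk6 was above background on 1 Ezh2-KO, 1 Ezh1-het and 2 double knockout arrays and on no control array. Its log ratios gave 1.11-fold, 1.14-fold and 1.14-fold over control. These folds rest largely on arrays where the probe was not above background, so they are not lower bounds. Cdkn1b (p27, a CDK inhibitor) gave 0.26, 0.14 and 0.07, and Rb1 (the retinoblastoma protein) gave -0.0022, 0.12 and -0.31, with its 2 probes of opposite sign in Ezh1-het. E2f1, E2f2 and E2f3 lay between -0.14 and 0.21 in all 3 comparisons.

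**Figure D4:**
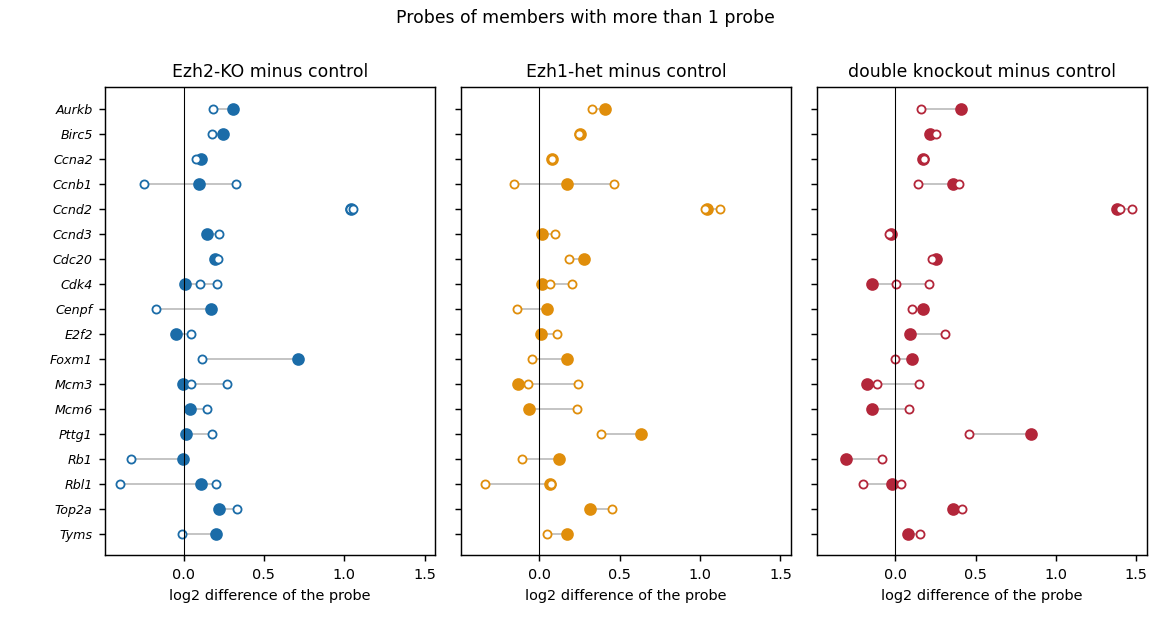
Log2 difference from control of each probe of the 18 members with more than 1 probe, with a panel each for Ezh2-KO, Ezh1-het and double knockout; the filled point is the brightest probe, which stands for the gene, and grey lines join probes of 1 gene. The 3 Ccnd2 probes coincide near 1 or above, while probes of Ccnb1, Rb1 and Rbl1 fall on both sides of 0.

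Taken by array, the 40 genes moved by small amounts, and 1 control array weighed on the comparison. The median of the 40 ran from -0.05 to 0.21 on the Ezh2-KO arrays, from -0.03 to 0.19 on the Ezh1-het arrays and from 0.03 to 0.15 on the double knockout arrays, against -0.29 on control 2 and -0.02 to 0.01 on the other controls. Control 2 also had the weakest Cy5 signal. For 33 of the 40 members with Ezh2-KO, 34 with Ezh1-het and 30 with double knockout the difference from control was above 0, where 62.6%, 60.6% and 51.5% of all genes were above 0. Each of these counts includes Cdk6, which passed the filter on dim probes only through knockout arrays. The median difference of the members exceeded that of all genes by 0.094, 0.11 and 0.14. Without control 2 it did so by 0.041, 0.047 and 0.11.

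The members also differed between slides within a genotype. All knockout arrays of slide 2 had member medians of 0.14 to 0.21, and knockout arrays of slide 1 had -0.05 to 0.13. Within slide 1 the median difference of the members exceeded that of all genes by 0.10 for Ezh2-KO, 0.12 for Ezh1-het and 0.19 for double knockout, and within slide 2 by 0.12, 0.089 and 0.12. At an unadjusted p under 0.05, 10, 13 and 15 of the 40 members were higher than control, where 14.3%, 17% and 10.5% of all genes were. The 13 and the 15 include Cdk6, which passed the filter on dim probes only through knockout arrays. With control 2 left out, the counts in either direction were 5, 6 and 9, and the share of all genes in that run is not given here. As a description, the median Pearson correlation between pairs of genes over the 16 arrays, which share the Cy3 sample, was 0.66 within the spindle and kinetochore group, 0.59 in mitotic entry, 0.43 in replication, 0.17 among G1 cyclins and kinases and 0.06 in the E2F group.

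**Figure D5:**
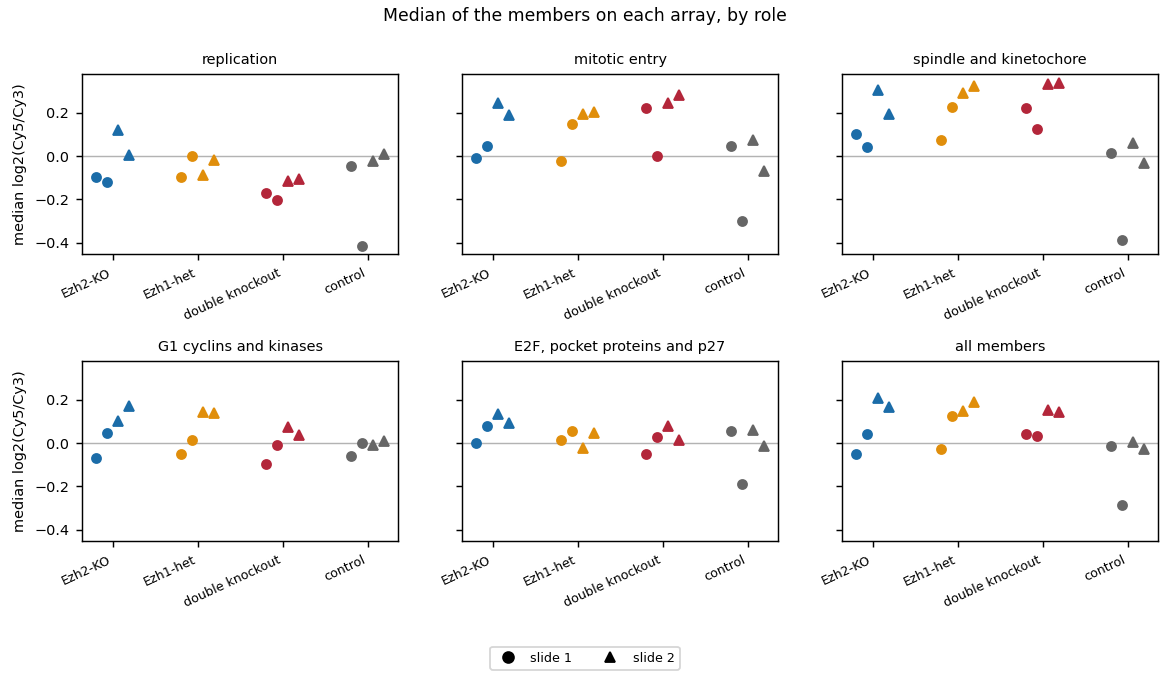
Median log2(Cy5/Cy3) of the members of each role on each array (circles slide 1, triangles slide 2), by genotype. Control 2 is lowest in every panel except that of G1 cyclins and kinases. In the all-member panel the slide 2 knockout arrays are above the slide 1 arrays of their genotype.

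Between knockout genotypes the members differed little. For Ezh1-het against Ezh2-KO 0 of 40 members were called, where 0.0575% of all genes were (0.0383% higher and 0.0192% lower), and 0 of 63 probes, where 0.0317% of all probes were. At an unadjusted p under 0.05 in limma, Pttg1 was higher and Foxm1 lower, where 3.96% and 3.42% of all genes were. The median difference was 0.0037, and that of all genes -0.0058. For double knockout against Ezh2-KO, 4 members were higher at an unadjusted p under 0.05 (Pttg1, Ccnd2, Ccne1 and Ccnb1) and 3 lower (Foxm1, Cdk2 and Ccnd3), where 4.81% and 7.93% of all genes were, with a median of 0.018 and a median of all genes of -0.041. Above 0 were 21 members in each of these comparisons, where 48.3% and 39.1% of all genes were. All Ezh1-het arrays lay below all Ezh2-KO arrays for 3 members (Ccnd3, Cdkn1b and Foxm1) and above for 0, where 2.56% and 1.99% of all genes did. All double knockout arrays lay below all Ezh2-KO arrays for 3 (Ccnd3, Cdk4 and Foxm1) and above for 1 (Pttg1), where 4.48% and 3.09% did.

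The other genes of the pathway divided into cell cycle genes with few calls and CDK inhibitors with many. Of 28 other replication genes none was called in any of the 3 comparisons with control, with medians of 0.12 for Ezh2-KO, 0.096 for Ezh1-het and 0.070 for double knockout kidneys. Those of all genes were 0.060, 0.052 and 0.0063. Without control 2 the medians of the 28 were 0.032, -0.0045 and -0.019, against 0.037, 0.025 and -0.011 for all genes. Of 36 other mitotic genes 1 rose, in Ezh1-het (Ube2c, a ubiquitin-conjugating enzyme of the anaphase-promoting complex, by 0.45, adjusted p = 0.0221). The medians of the 36 were 0.14, 0.15 and 0.18 in the same order of genotypes. Without control 2 they were 0.061, 0.084 and 0.12, against 0.037, 0.025 and -0.011 for all genes. Of 13 other E2F and DREAM genes 1 rose in Ezh2-KO (E2f6, by 0.40) and 1 in Ezh1-het (E2f4, by 0.37), and none in double knockout kidneys.

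By contrast, 4 of 6 CDK inhibitors outside the members rose in both Ezh1-het and double knockout kidneys, where 5.91% and 3.71% of all genes were called higher. None passed in Ezh2-KO kidneys, where 2.4% of all genes were called higher. There Cdkn2b was 0.73 above control (adjusted p = 0.0845), with no overlap between the arrays. Cdkn2a (p16 and p19Arf) read 0.15, 0.61, 2.01 and 2.08 on the Ezh2-KO arrays, between 3.35 and 3.62 on the Ezh1-het arrays and between 3.89 and 4.64 on the double knockout arrays, against -0.15 to 0.06 on the control arrays, where it was not well above background. The 3 genotypes do not overlap with each other or with control. This was at least 11.5-fold in Ezh1-het and at least 19.4-fold in double knockout kidneys over control (adjusted p = 2.43e-05 and 9.42e-07), and at least 2.36-fold in Ezh2-KO kidneys (adjusted p = 0.0520).

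Cdkn2b (p15), above background on 1 of the 4 control arrays and on all knockout arrays, rose by 1.88 in Ezh1-het and 1.80 in double knockout kidneys, and Cdkn2c (p18) by 0.49 and 1.00. Cdkn1a (p21), by 0.61 and 0.81, overlapped the control arrays on at least 1 array. Against Ezh2-KO, 4 of 6 inhibitors rose in double knockout and 2 of 6 (Cdkn2a and Cdkn2c) in Ezh1-het kidneys. Of all genes 0.639% and 0.0383% were called higher in these 2 comparisons. On the same arrays, as given above, no replication gene among the members passed the threshold in either direction.

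Markers of kidney cell types moved on these arrays as well. Of 8 nephron progenitor markers 2 fell in Ezh2-KO (Cited1 and Crym), 3 in Ezh1-het (Cited1, Crym and Meox1) and 2 in double knockout kidneys (Cited1 and Crym). Their median per array ran from -0.39 to 0.01 in Ezh2-KO, from -0.74 to -0.23 in Ezh1-het and from -0.55 to -0.01 in double knockout kidneys, against -0.26 to 0.44 in control kidneys. The podocyte markers Podxl and Nphs1 rose in Ezh1-het (by 0.94 each, adjusted p = 0.0110 and 0.0139), and they were above background on 1 and 2 of the 4 control arrays. Podocyte medians per array were 0.53 to 0.91 in Ezh1-het, against -0.50 to 0.03 in control kidneys. The myeloid genes S100a8 and S100a9 rose in Ezh2-KO (2 of 6 measured, medians of 0.00 to 0.96, against -0.39 to 0.05). Erythroid medians ran from -1.12 to -0.16 in double knockout kidneys, against -0.32 to 0.09, and the erythroid gene Epb42 was above background on no array. Proximal tubule medians ran from -2.52 to 0.20 in Ezh2-KO, from -0.14 to 0.49 in Ezh1-het and from -2.67 to -1.02 in double knockout kidneys, against 0.11, 0.61, -2.25 (control 3) and -0.21 in control kidneys. All 6 of these genes lay below control in Ezh2-KO and in double knockout kidneys and above it in Ezh1-het kidneys, and 0 were called. Endothelial medians lay between -0.49 and -0.38 on the double knockout arrays, below the control arrays (-0.29 to 0.07), with 0 of 4 measured genes called, and Tek was above background on no array. Of 7 stroma markers, Ren1 rose in Ezh2-KO (by 0.70, adjusted p = 0.0041) and Foxd1 in double knockout kidneys (by 0.72, adjusted p = 0.0450). Foxd1 was also 0.62 above control in Ezh2-KO and 0.52 above it in Ezh1-het, both uncalled. Its double knockout arrays overlapped the control arrays, of which control 2 was lowest at -0.75. Of the kidney identity markers, Pax8 rose in Ezh1-het (by 0.38, adjusted p = 0.0438) and in double knockout kidneys (by 0.62, adjusted p = 0.0025). None of the ureteric bud markers was called. The part of these cell types in the values of the 40 genes was not tested.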

How the data were processed

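Total RNA of 16 kidney samples was hybridised to 2-colour Agilent mouse arrays. The deposited scanner files, per the file headers written by Agilent Feature Extraction 10.7.3.1, give median intensity of spot and background and a log10 ratio of processed Cy5 to Cy3. The authors' value table repeats that log10 ratio within 0.005, with a median of 0 on each array. Groups and replicate numbers were read from the titles and genotypes, and the direction of each ratio from the labelled dyes. The lowest correlation between 2 arrays over all probes was -0.26.

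Median intensities were corrected with normexp (offset 50) and normalised within arrays by loess in limma 3.58.1 (R 4.3.3), with control spots at weight 0 and outlier spots left out. A probe was kept if 4 or more of the 16 arrays had it well above background in Cy5, and the brightest probe stood for its gene. Symbols came from a RefSeq table (GRCm38.p6) by accession, so that 32994 of 56605 probes were named. One limma fit over 16 arrays gave 5 comparisons, with Benjamini-Hochberg adjustment over all genes or, for single probes, over all probes. The code was tested on simulated data. A bound for a probe below background in 1 group sets the mean of the brighter group against the lowest signal well above background or the probe's own signal, whichever is higher, per array. Each fold given as "at least" is the smaller of this bound and the fold from the log ratios.

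The members and gene lists were chosen with earlier results of these data known. By rule the text could name the members, Ezh1, Ezh2, genes of the other lists called in at least 1 comparison (at most the 6 largest differences per list), and the 5 most like Mki67. Outside this rule, and after their values were seen, it names the 5 most like Pttg1 and, as checks of cell types, Pax2, Emx2, Lhx1, Wt1, Epb42 and Tek. Number of arrays and, for dim probes, signal over background limit the precision. Alternatives covered normalisation, background, filter, probe choice, blocks, weights, slides and left-out arrays. Some marker genes are not reported here.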

Additional observations from a re-analysis of the deposited data

Results flagged for a closer look

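In 14 of the 160 sets of 4 arrays formed by a member and a genotype, 1 array stood apart from the other 3 by Dixon's criterion at the 95% level, and chance alone marks about 1 in 20 such sets. Ezh1-het 1 was low for 4 mitotic entry genes: Cdk1 at -0.023 (others 0.21 to 0.24), Foxm1 at -0.37 (others 0.19 to 0.25), Plk1 at 0.10 (others 0.37 to 0.42) and Aurkb at -0.17 (others 0.41 to 0.47). Control 2 was low for 3 genes: Pcna at -0.52 (others -0.01 to 0.01), Ccnb1 at -0.42 (others -0.07 to -0.01) and Rbl1 at -0.65 (others -0.09 to -0.01). Double knockout 2 was low for Ccnb1, at 0.00093 (others 0.28 to 0.33), and for Bub1, at -0.31 (others 0.06 to 0.13). Mcm6 stood low on Ezh2-KO 2 at -0.28 (others -0.21 to -0.19) and high on double knockout 4, also at -0.28 (others -0.46 to -0.43). Ccnd2 on Ezh2-KO 3 was at 1.29 (others 1.13 to 1.15), Ccne1 on control 4 at 0.24 (others -0.01 to 0.03), and E2f1 on Ezh2-KO 1 at 0.12 (others 0.22 to 0.23).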

How the results depend on the processing

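No called result changed direction, and of 226 counts or medians under an alternative 192 stayed within their limit. Median centring in place of loess moved most: the median of all genes then lay above control by 0.41 for Ezh2-KO, 0.44 for Ezh1-het and 0.38 for double knockout, and 30, 34 and 26 members were called, of which 1 in Ezh1-het was lower and the others higher. Relative to all genes their medians were then 0.25, 0.27 and 0.31 higher, and 0 members were called for double knockout against Ezh2-KO. Array weights gave 8 calls in Ezh1-het, 6 in double knockout, 1 for Ezh1-het against Ezh2-KO and 4 for double knockout against Ezh2-KO (1 of them, Foxm1, lower). Shares of all genes called under the alternatives are not given here, so the counts of members cannot be set against them. In double knockout kidneys 4 members were called with the software's processed ratio, with the value table, with slide as a block and with the replicate number as a block. In Ezh2-KO kidneys 1 was called with the mean of probes and with only the groups compared. Without controls 2 and 3, 1 was called in Ezh2-KO and 1 in Ezh1-het. Within slide 1 the calls were 1, 1 and 1 against control and 0 for double knockout against Ezh2-KO, and within slide 2, 1 in Ezh2-KO; each such fit has fewer samples. For the other changes the cause was not tested. Leaving out 1 array at a time gave 1 to 2, 1 to 4, 2 to 3, 0 to 1 and 1 to 1 calls in the 5 comparisons, and medians relative to all genes of 0.041 to 0.13, 0.047 to 0.15, 0.11 to 0.18, -0.018 to 0.051 and 0.022 to 0.080. The replicate numbers share slides but did not pair samples: 1, 2, 2, 0 and 1 of 4 same-numbered pairs correlated above 0.1 in the 5 comparisons, so the block result is a hint from the data only. Few arrays and dim probes such as that of Cdk6 limit what can be detected.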
